A study of Homo sapiens with 4 samples.

Results

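The genes described here encode the nuclear subunits of respiratory chain complexes II, III and IV and of complex V, the ATP synthase. They were chosen by a rule on names, with earlier results of these data known. The rule takes protein-coding genes called SDHA to SDHD, CYC1, and those whose symbols begin with UQCR or with COX4 to COX8. It also takes the ATP5 subunit genes of the F1, MC, ME, MF, MG, PB, PD, PF, PO and IF1 series. The rule found 49 of the 58735 genes in the deposited table, of which 4 belong to complex II, 10 to complex III, 17 to complex IV and 18 to complex V. RNA came from the established human ovarian cancer line OVCAR8, grown in RPMI-1640 with fetal bovine serum. The 2 shFAM49B libraries were made from cells given short hairpin RNAs against FAM49B (genotype label: Knockdown FAM49B gene). The 2 shCON libraries were made from cells given a scrambled hairpin (genotype label: WT). The FAM49B protein (CYRIB) is a RAC1-binding protein. Per the labels' protocols the GIPZ hairpin plasmids were introduced by lipofection and the cells collected after 36 h, whereas the design text calls the knockdown stable. The sources used here do not give the hairpin sequence or say whether replicate libraries are from different cultures. The p-values therefore reflect the differences among these 4 libraries, which may be only technical.

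Oxidative phosphorylation makes most of the ATP of a resting cell. Complex II (succinate dehydrogenase) passes electrons from succinate to ubiquinone and is also an enzyme of the citric acid cycle. Complex III moves them on to cytochrome c while pumping protons, complex IV (cytochrome c oxidase) hands them to oxygen, and complex V lets the protons back through its rotor to make ATP. All subunits of complex II are encoded in the nucleus. Complexes III, IV and V combine nuclear subunits with others encoded by the mitochondrial genome, such as cytochrome b and the catalytic core of cytochrome c oxidase.

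Levels are FPKM as deposited: reads per kilobase of gene length, divided by a library size from median ratios and not by sequencing depth. The reads behind them could be recovered and came to 16288871 and 16290200 in shFAM49B and to 15639559 and 16875353 in shCON. The library sizes were 0.941 and 0.919 of these reads in shFAM49B, against 1.08 and 1.10 in shCON. Relative to division by the reads, the deposited values are thus higher in shFAM49B and lower in shCON. FAM49B (ENSG00000153310) stood at 1.06 and 1.02 FPKM in shFAM49B, against 7.41 and 7.60 FPKM in shCON, a fall of 7.21-fold (log2 fold change -2.06, SE 0.0807, limma adjusted p = 0.00054), so the labels and this transcript went the same way. Of 5 epithelial markers 4 reached a mean of 1 FPKM and 3 (CDH1, EPCAM and KRT18) fell. The summed level of the 5, carried by KRT8 and KRT18, was 62.1 and 62.3 FPKM in shFAM49B, against 76.4 and 73.4 FPKM in shCON. CDH1 stood at 0.422 and 0.281 FPKM in shFAM49B, against 3.69 and 3.51 FPKM in shCON. EPCAM stood at 0.129 and 0.345 FPKM in shFAM49B, against 2.94 and 2.96 FPKM in shCON, so both passed the mean of 1 FPKM through shCON only. Of 5 markers of serous ovarian carcinoma only WT1 and MECOM reached a mean of 1 FPKM, and the summed level of all 5 was 3.87 and 3.41 FPKM in shFAM49B, against 5.50 and 5.18 FPKM in shCON. SOX17 was at 0 in all 4 libraries and PAX8 and MUC16 were near 0 in each of them. No leukocyte, endothelial, striated muscle or testis germ cell marker reached a mean of 1 FPKM, and of 4 fibroblast markers COL1A1 did. Whether the lower epithelial markers have a part in any result below was not tested.

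Of the 49 genes, 41 averaged 1 FPKM or more across the libraries and were tested. In shFAM49B 35 of these 41 rose and none fell (limma on log2(FPKM + 1), 2-sided, adjusted p under 0.05 over 13775 tested genes). As background, 26.4% of all tested genes rose and 15.8% fell. Among the 8763 tested genes at or above the level of the lowest tested subunit gene, 35.8% rose. Those genes were not matched to the subunit genes in level, and log2 fold changes tended to be larger at higher mean FPKM. The Spearman correlation was 0.29 over all tested genes and 0.59 over the 41. None of the 41 was lower even at an unadjusted p under 0.05. The count of 35 depends on the processing: it was 34 with limma voom on the recovered reads, 20 after quantile normalization, 19 per recovered read, 18 as TPM and 20 without shFAM49B library 2, with none lower in any of these. The 35 were 3 of 4 tested in complex II, 8 of 10 in complex III, all 11 in complex IV and 13 of 16 in complex V. For 39 of the 41 genes both shFAM49B libraries lay above both shCON libraries, against 43.1% of all tested genes. These changes were modest: the ratio of mean FPKM ran from 1.04 to 1.86 and the median log2 fold change was 0.47, against 0.05 over all tested genes. In bulk RNA a change in the share of cells of some kind and a change in RNA per cell cannot be told apart.

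**Figure D1:**
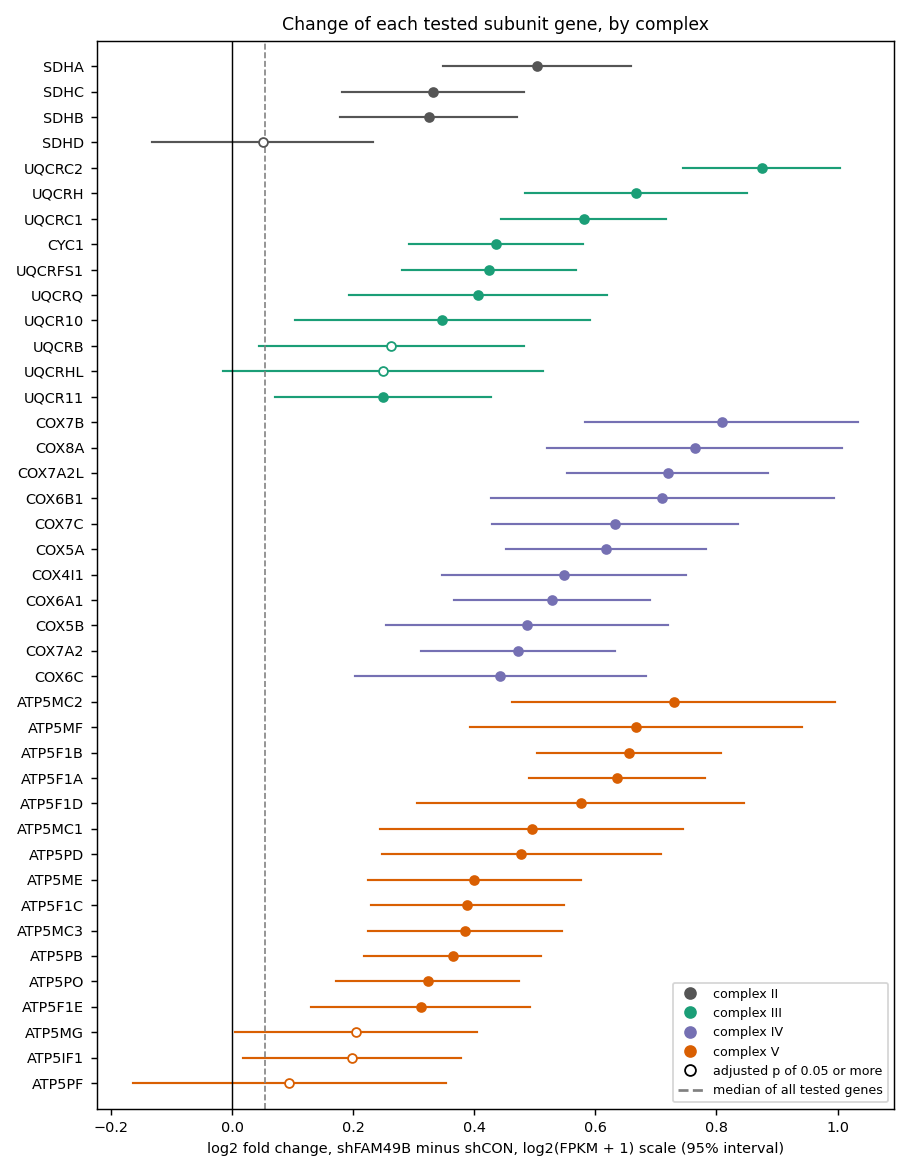
Log2 fold change (shFAM49B minus shCON, on the log2(FPKM + 1) scale) of each of the 41 tested subunit genes, grouped by complex and ordered by size, with the 95% interval of the limma fit as a bar; open circles mark genes with an adjusted p of 0.05 or more and the dashed line is the median of all tested genes. All 41 points lie right of 0, from 0.05 (SDHD) to 0.87 (UQCRC2), and the 6 open circles are SDHD, UQCRB, UQCRHL, ATP5IF1, ATP5MG and ATP5PF.

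Summed over members, complex IV had the largest relative difference of the 4 complexes. Its members came to 802 and 815 FPKM in shFAM49B, against 475 and 549.7 FPKM in shCON. Complex V came to 1136 and 1197 FPKM in shFAM49B, against 763 and 811 FPKM in shCON. The sums of complex III were 594 and 613 FPKM in shFAM49B and 403 and 429.6 FPKM in shCON, and those of complex II 108.9 and 109.6 FPKM in shFAM49B and 85.1 and 88.7 FPKM in shCON. No group overlapped the other in any of these sums, and a few abundant genes dominate each of them. As a share of recovered reads, all members together took 0.643% and 0.651% in shFAM49B, against 0.492% and 0.530% in shCON, a ratio of 1.26.

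Nuclear subunit genes are known targets of GABP, a transcription factor of the ETS family, so the 250 bases before each RefSeq start were searched on both strands for the ETS motif CCGGAAGT (reverse complement ACTTCCGG). Of the 41 tested genes 32 had a RefSeq promoter entry. The letters stood in 7 of these 32 (21.9%), in 3.64% of 27305 promoters and in 7.56% of the 9369 tested genes with an entry. Subunit genes with the letters had a median log2 fold change of 0.48 and those without 0.49, a difference that was not tested. The stretches below, from RefSeq (GRCh38.p14), are printed 5′ to 3′ with the motif in capitals. Of the 7 genes with the letters 6 rose as deposited and SDHD did not pass. UQCRH and COX8A kept their calls under all 6 scalings described below. UQCRQ, UQCR11, COX5B and ATP5PD lost theirs as TPM and per recovered read. The stretches show the motif before 3 that rose: UQCR11 (chr19:1605532-1605619, minus strand), COX5B (chr2:97645985-97646039, plus strand) and ATP5PD (chr17:75047024-75047111, minus strand), from complexes III, IV and V.
UQCR11: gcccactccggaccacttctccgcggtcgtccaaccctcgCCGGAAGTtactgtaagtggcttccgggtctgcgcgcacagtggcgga
COX5B: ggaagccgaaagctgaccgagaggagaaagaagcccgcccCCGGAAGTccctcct
ATP5PD: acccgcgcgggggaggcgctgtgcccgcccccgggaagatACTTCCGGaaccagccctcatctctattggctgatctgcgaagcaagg
A match describes the letters of these windows and is not evidence that a factor is bound there.

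In complex II, 3 of the 4 genes rose and SDHD did not pass. SDHA (ENSG00000073578, chr5:218241-256700 on GRCh38) encodes the flavoprotein that oxidises succinate, and it stood at 29.6 and 31.8 FPKM in shFAM49B, against 21.6 and 21.1 FPKM in shCON. It rose 1.44-fold (log2 fold change 0.50, SE 0.0617, limma adjusted p = 0.0038). SDHB (chr1:17018722-17054170), the iron-sulfur subunit, stood at 46.3 and 45.6 FPKM in shFAM49B, against 35.4 and 37.6 FPKM in shCON (1.26-fold, adjusted p = 0.0103). SDHC (chr1:161314257-161375340), one of the membrane anchors that bind ubiquinone, stood at 12.6 and 13.2 FPKM in shFAM49B, against 10.0 and 10.1 FPKM in shCON (1.28-fold, adjusted p = 0.0104). The other anchor, SDHD (chr11:112086773-112120013), stood at 20.4 and 19.0 FPKM in shFAM49B, against 18.1 and 19.9 FPKM in shCON. Its groups overlapped, and its log2 fold change of 0.05 had a 95% interval from -0.13 to 0.23 (adjusted p = 0.605). SDHD kept no sign across scalings, with a log2 fold change of -0.19 as TPM. SDHA kept its call with each library left out in turn, SDHB lost it without shCON library 1, shFAM49B library 1 or shFAM49B library 2, and SDHC without shCON library 1, shCON library 2 or shFAM49B library 2.

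Complex III had the gene with the largest change of all 41. UQCRC2 (ENSG00000140740, chr16:21952660-21983660), one of the core proteins on the matrix side, stood at 61.9 and 61.9 FPKM in shFAM49B, against 33.5 and 33.2 FPKM in shCON. It rose 1.86-fold (log2 fold change 0.87, SE 0.0512, limma adjusted p = 0.0012). The other core protein, UQCRC1 (chr3:48599002-48610976), stood at 95.5 and 99.0 FPKM in shFAM49B, against 64.0 and 65.4 FPKM in shCON (1.5-fold, adjusted p = 0.0023). UQCRH (chr1:46303631-46316776), the acidic hinge protein that contacts cytochrome c, stood at 134.5 and 140.1 FPKM in shFAM49B, against 81.4 and 91.0 FPKM in shCON (1.59-fold, adjusted p = 0.0030). The ratios of these 3 genes were larger than those of the redox subunits, a difference that was not tested. CYC1, which encodes cytochrome c1, rose 1.36-fold, with 128.1 and 135.6 FPKM in shFAM49B and 97.1 and 97.2 FPKM in shCON. UQCRFS1, the Rieske iron-sulfur protein, also rose 1.36-fold, with 30.9 and 30.4 FPKM in shFAM49B and 22.0 and 23.2 FPKM in shCON.

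Among the small subunits of complex III, UQCRQ rose 1.33-fold and UQCR10 1.27-fold. UQCR11 stood at 10.2 and 9.44 FPKM in shFAM49B, against 8.35 and 7.84 FPKM in shCON (1.21-fold, log2 fold change 0.25, SE 0.0708, limma adjusted p = 0.0394). UQCRB, the ubiquinone-binding protein, stood at 9.92 and 8.86 FPKM in shFAM49B, against 7.23 and 8.09 FPKM in shCON, and did not pass (log2 fold change 0.26, 95% interval 0.04 to 0.48, adjusted p = 0.0598). UQCRB passed with voom on the recovered reads. UQCR11 lost its call without any 1 of the 4 libraries, UQCR10 without shCON library 1, shFAM49B library 1 or shFAM49B library 2, and UQCRQ without shCON library 1 or shFAM49B library 2, whereas the other 5 calls of complex III held in all 4 of these fits. UQCRHL, a retrogene copy of UQCRH, stood at 4.76 and 4.02 FPKM in shFAM49B, against 3.75 and 3.30 FPKM in shCON (log2 fold change 0.25, 95% interval -0.01 to 0.51, adjusted p = 0.111). UQCRHL held 0.0548 and 0.0444 reads per read of UQCRH in shFAM49B, against 0.0714 and 0.0561 in shCON. How reads were shared between 2 such similar sequences is not given in the sources used here, so the level of UQCRHL is uncertain.

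All 11 tested genes of complex IV rose, in a narrow range of 1.37-fold to 1.79-fold, with a median log2 fold change of 0.62. COX7B (ENSG00000131174, chrX:77899438-77907373), a small transmembrane subunit, had the largest change and stood at 32 and 35.2 FPKM in shFAM49B, against 17.5 and 20.1 FPKM in shCON (1.79-fold, log2 fold change 0.81, SE 0.0893, limma adjusted p = 0.0031). COX7A2L (chr2:42333546-42425088), which joins complexes III and IV into supercomplexes, stood at 18.5 and 19.4 FPKM in shFAM49B, against 11.5 and 10.7 FPKM in shCON (1.70-fold, adjusted p = 0.0022). COX5A (chr15:74919791-74938168), a matrix-side subunit, stood at 110.3 and 117.1 FPKM in shFAM49B, against 71.1 and 76.5 FPKM in shCON (1.54-fold, adjusted p = 0.0029). COX8A (chr11:63974607-63976543), the gene of this complex with the highest FPKM, stood at 235 and 242 FPKM in shFAM49B, against 127.7 and 153 FPKM in shCON (1.70-fold, adjusted p = 0.0041). In all of them the shFAM49B libraries lay above the shCON libraries without overlap.

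The 3 genes of complex IV with the largest p also showed no overlap between groups. COX6B1, on the intermembrane side, stood at 106.3 and 101.0 FPKM in shFAM49B, against 56.2 and 70.4 FPKM in shCON (1.64-fold, limma adjusted p = 0.0072). COX5B, a zinc-binding matrix subunit whose promoter stretch with the ETS letters is printed above, stood at 52.8 and 51.9 FPKM in shFAM49B, against 33.9 and 40.5 FPKM in shCON (1.41-fold, adjusted p = 0.0120). COX6C stood at 28.0 and 27.8 FPKM in shFAM49B, against 18.4 and 22.3 FPKM in shCON (1.37-fold, adjusted p = 0.0176). The shCON libraries differed more from each other than the shFAM49B libraries did in each of these 3 genes. COX5B and COX6C lost their calls without shFAM49B library 1 or shFAM49B library 2, and the other 9 calls held with each library left out in turn. The remaining genes, COX4I1, COX6A1, COX7A2 and COX7C, rose 1.41-fold to 1.56-fold. COX4I1, the regulatory subunit that binds ATP, held 1.76 and 1.78 reads per read of COX5A in shFAM49B, against 1.80 and 1.90 in shCON, so these 2 genes kept nearly the same proportion.

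In complex V, 13 of 16 tested genes rose. All 5 genes of the catalytic F1 head did, with a median log2 fold change of 0.58. ATP5F1B (ENSG00000110955, chr12:56638175-56646068), the catalytic beta subunit and the gene with the highest FPKM of all members, stood at 578 and 607 FPKM in shFAM49B, against 373 and 378 FPKM in shCON (1.58-fold, log2 fold change 0.66, SE 0.0601, limma adjusted p = 0.0022). ATP5F1A (chr18:46080248-46104334), the alpha subunit, stood at 55.7 and 58.0 FPKM in shFAM49B, against 37.1 and 35.4 FPKM in shCON (1.57-fold, adjusted p = 0.0022). The gamma and delta subunits of the central stalk, ATP5F1C and ATP5F1D, rose 1.31-fold and 1.49-fold, and the epsilon subunit ATP5F1E rose 1.27-fold. After quantile normalization the log2 fold change of ATP5F1B was -0.0085 and its call was lost.

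All 3 genes of the c ring, the rotor that protons turn, rose. They encode the same mature protein with different targeting sequences. ATP5MC2 (chr12:53632726-53677408) stood at 62.6 and 71.6 FPKM in shFAM49B, against 36.8 and 43.5 FPKM in shCON (1.67-fold, log2 fold change 0.73, SE 0.106, limma adjusted p = 0.0057). ATP5MC1 rose 1.42-fold and ATP5MC3 1.32-fold. Reads of ATP5MC3 per read of ATP5MC2 were 0.779 and 0.683 in shFAM49B, against 0.964 and 0.888 in shCON, without overlap. This pair, the smallest and the largest rise of the 3, was picked after the values were seen. The ratio is therefore a description and was not tested.

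The peripheral stalk, which holds the head still against the rotor, had the smallest median of these groups, 0.34. ATP5PB, ATP5PD and ATP5PO (subunits b, d and OSCP) rose 1.29-fold, 1.42-fold and 1.28-fold. Their partner ATP5PF (chr21:25716503-25735673, coupling factor 6) stood at 19.2 and 20.1 FPKM in shFAM49B, against 16.5 and 20.2 FPKM in shCON, with overlapping groups (log2 fold change 0.09, 95% interval -0.16 to 0.35, limma adjusted p = 0.491). Of the membrane subunits e, f and g, ATP5ME rose 1.36-fold and ATP5MF 1.62-fold. ATP5MG (subunit g) stood at 6.02 and 5.37 FPKM in shFAM49B, against 4.73 and 4.88 FPKM in shCON, and did not pass (log2 fold change 0.20, 95% interval 0.0047 to 0.40, adjusted p = 0.0911). ATP5IF1, which blocks ATP hydrolysis by the enzyme when the proton gradient collapses, stood at 28.4 and 31.6 FPKM in shFAM49B, against 25.4 and 26.5 FPKM in shCON, and did not pass either (log2 fold change 0.20, 95% interval 0.02 to 0.38, adjusted p = 0.0759).

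Of the 13 calls of complex V, 5 held with each library left out in turn (ATP5F1A, ATP5F1B, ATP5F1C, ATP5MC2 and ATP5MC3). Without shFAM49B library 2 alone, 8 of the 13 were lost. ATP5PO was lost without any 1 library, ATP5F1E also without shCON library 1 or shFAM49B library 1, ATP5ME also without shCON library 1, and ATP5MC1 and ATP5PD also without shFAM49B library 1. The median of complex V was 0.39.

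**Figure D2:**
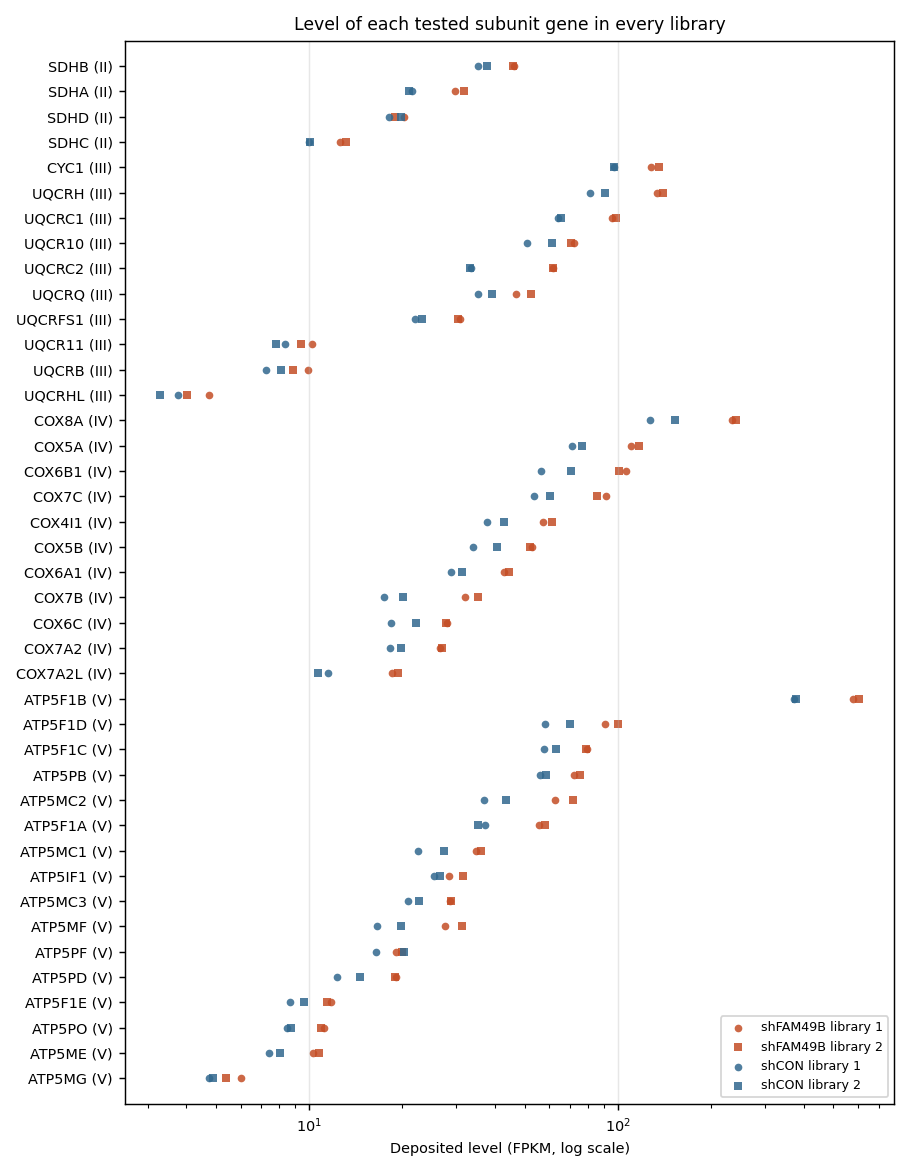
Deposited level (FPKM, log scale) of the 41 tested subunit genes in the 2 shFAM49B libraries (orange) and the 2 shCON libraries (blue), ordered by complex and by mean level; circles are library 1 and squares library 2 of each group. In 39 of the 41 genes both orange points lie right of both blue ones, the exceptions being SDHD and ATP5PF.

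The 6 genes that did not pass were compared with a partner in their own complex, as ratios of recovered reads within a library. No scaling between libraries can move these ratios, and that of UQCRHL to UQCRH is given above. These genes, and partners that rose, were picked after their values were seen. Lower ratios in shFAM49B were thus built into the choice, and the ratios are a description. SDHD held 0.233 and 0.203 reads per read of SDHA in shFAM49B, against 0.284 and 0.320 in shCON. UQCRB held 0.299 and 0.266 per read of UQCRC2 in shFAM49B, against 0.403 and 0.454 in shCON. Both ratios were lower in shFAM49B, and so were those of complex V. ATP5PF held 0.0292 and 0.0291 per read of ATP5F1B in shFAM49B, against 0.0390 and 0.0472 in shCON. ATP5IF1 held 0.0471 and 0.0498 per read of ATP5F1B in shFAM49B, against 0.0652 and 0.0673 in shCON. ATP5MG held 0.324 and 0.255 per read of ATP5MF in shFAM49B, against 0.425 and 0.364 in shCON. With 2 libraries a group the smallest 2-sided p of an exact permutation test is 0.333, so no test was made of single ratios.

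**Figure D3:**
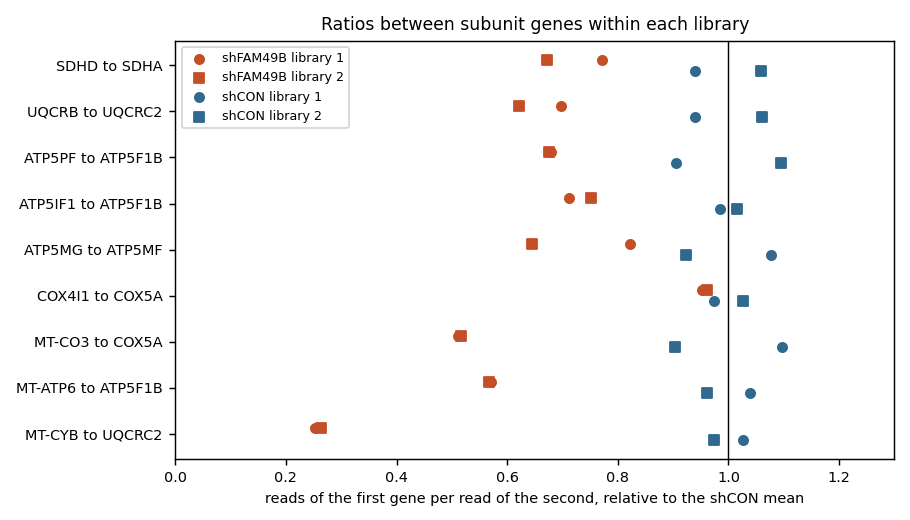
Reads of one gene per read of a partner gene in each library, divided by the mean of the 2 shCON libraries, with shFAM49B in orange and shCON in blue (circles library 1, squares library 2). The pairs were chosen after the values were seen. The shFAM49B points of MT-CYB to UQCRC2 lie farthest left (0.258 of the shCON mean), and those of COX4I1 to COX5A lie closest to 1 (0.956).

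The 8 genes that were not tested are isoforms of other tissues or read-through and copy genes. COX4I2 (lung and other tissues), COX6A2 (heart and skeletal muscle) and COX7B2 had no read in any library, and neither had the read-through transcript ATP5MF-PTCD1. ATP5MF-PTCD1 overlaps ATP5MF and PTCD1 on the same strand. How reads of such shared stretches were counted is not given, so its lack of reads does not show absence. At this depth a count of 0 allows up to 3 reads per library, or 0.234 to 0.289 FPKM for COX4I2 and 0.300 to 0.371 FPKM for COX6A2 (counting error only). COX7A1, the isoform of heart and skeletal muscle, had 0 and 5 reads in shFAM49B and 2 and 2 in shCON. COX8C had 1 and 7 reads in shFAM49B and 2 and 10 in shCON, and ATP5MGL had 1 read in all, in shCON library 1. ATP5MGL lies within CYB5R3 on the same strand, so its low count does not show absence either. COX6B2, known from testis and from some cancers, had 41 and 39 reads (0.701 and 0.683 FPKM) in shFAM49B, against 17 and 37 reads (0.264 and 0.524 FPKM) in shCON. Thus of the isoform pairs the common form (COX4I1, COX6A1, COX6B1, COX7A2, COX7B and COX8A) carried almost all reads in both groups, and all 6 of these common forms rose.

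Levels within a complex depend on the gene length used. The deposited lengths cover every annotated exon of a gene, and on the length of the principal transcript alone the order changed. On that scale COX4I1, at 325 FPKM in shFAM49B and 221 FPKM in shCON, and not COX8A, at 238 FPKM in shFAM49B and 140.5 FPKM in shCON, had the highest mean of complex IV in both groups. UQCRH had the highest mean of complex III (320.0 FPKM in shFAM49B, 201 FPKM in shCON) and ATP5F1B of complex V (748 FPKM in shFAM49B, 474 FPKM in shCON), with ATP5MG lowest (12.2 FPKM in shFAM49B, 10.3 FPKM in shCON). SDHC was lowest in complex II at 13.5 FPKM in shFAM49B and 10.5 FPKM in shCON, while SDHA, at 107.7 FPKM in shFAM49B and 74.9 FPKM in shCON, and SDHB, at 98.1 FPKM in shFAM49B and 78.0 FPKM in shCON, exchanged the first place between the groups.

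Of 6 tested subunits of complexes III to V that the mitochondrial genome encodes none rose and 2 fell (33.3%, against 15.8% of all tested genes). The remaining 4 did not pass, and the median log2 fold change of the 6 was -0.24. With voom, after quantile normalization, per recovered read and as TPM 4 fell, with medians of -0.32, -0.46, -0.47 and -0.49. Among all tested genes 2170 fell as deposited, 3514 with voom, 4173 per recovered read and 4362 as TPM. The medians of all tested genes under the 4 scalings, in the same order, were -0.012, 0.019, -0.13 and -0.17. How much of the rise from 2 to 4 follows the shift of all tested genes was not tested. MT-CYB, cytochrome b of complex III, stood at 1718 and 1790 FPKM in shFAM49B, against 3764 and 3545 FPKM in shCON, and fell by 1.06 on the log2 scale (SE 0.0759, limma adjusted p = 0.0017). MT-CO3 stood at 2839 and 3050 FPKM in shFAM49B, against 3935 and 3483 FPKM in shCON (log2 fold change -0.33, SE 0.0950, adjusted p = 0.0405). Both fell under all 6 scalings. MT-CYB also passed with each library left out, but neither passed without the filter on low values (adjusted p = 0.122 for MT-CYB and 0.615 for MT-CO3), and MT-CO3 lost its call without shCON library 1, shFAM49B library 1 or shFAM49B library 2 (0.150, 0.311 and 0.219).

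The other 4 did not pass as deposited, but MT-CO2 and MT-ATP6 were called lower under 4 of the 6 scalings (TPM, per recovered read, quantile normalization and voom). MT-CO1, the catalytic subunit of complex IV, had a log2 fold change of 0.19 (adjusted p = 0.209) whose sign differed between scalings, and MT-CO2 one of -0.08 (adjusted p = 0.491). MT-ATP6 of the proton channel had a log2 fold change of -0.16 (limma adjusted p = 0.177). MT-ATP8 stood at 17.0 and 14.5 FPKM in shFAM49B, against 32.1 and 15.4 FPKM in shCON (log2 fold change -0.48, adjusted p = 0.278). Per read of UQCRC2 there were 6.07 and 6.32 reads of MT-CYB in shFAM49B, against 24.6 and 23.4 in shCON. MT-CO3 had 14.3 and 14.5 reads per read of COX5A in shFAM49B, against 30.7 and 25.3 in shCON, and MT-ATP6 had 1.91 and 1.90 per read of ATP5F1B in shFAM49B, against 3.49 and 3.22 in shCON. The nuclear members of complex IV held 0.0608 and 0.0589 reads per read of MT-CO1, MT-CO2 and MT-CO3 together in shFAM49B, against 0.0360 and 0.0459 in shCON. In each of these proportions the nuclear side was higher in shFAM49B and the groups did not overlap. The pairs were named after the values were seen, and MT-CYB and UQCRC2 had the largest fall and the largest rise. The direction of the ratios of single genes was thus set by the choice, and all of them are a description. All mitochondrial genes together took 4.56% and 4.63% of reads in shFAM49B, against 5.28% and 4.77% in shCON.

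Of 5 subunits and partners with names outside the rule 1 rose and 4 did not pass, with a median log2 fold change of 0.17. As TPM none of the 5 rose and 2 (CYCS and ATP5S) fell, and ATP5S also fell per recovered read and with voom. NDUFA4, now counted as a subunit of complex IV, stood at 28.4 and 30.6 FPKM in shFAM49B, against 18.8 and 22.3 FPKM in shCON, and rose 1.44-fold (limma adjusted p = 0.0114). That call was lost as TPM, per recovered read, without the filter and without shFAM49B library 2. The small ATP synthase proteins ATP5MPL (log2 fold change 0.30, adjusted p = 0.0529) and ATP5MD (0.17, adjusted p = 0.0609) did not pass. CYCS, the cytochrome c that carries electrons between complexes III and IV, stood at 39.0 and 39.1 FPKM in shFAM49B, against 37.9 and 36.4 FPKM in shCON, and did not pass (adjusted p = 0.343 at a log2 fold change of 0.07). For ATP5S the log2 fold change was -0.21 (adjusted p = 0.154).

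Assembly factors build the complexes but are not part of them. Of 38 tested 14 rose (36.8%), 2 fell and 22 did not pass, with a median log2 fold change of 0.19. That share is near the 35.8% of tested genes at or above the level of the lowest tested subunit gene. The share is therefore no result about assembly factors, some of which lie below that level. As TPM 5 rose and 7 fell (median 0.025), and per recovered read also 5 rose and 7 fell (median 0.032). The balance of calls thus turned with the scaling, as it did over all tested genes. As TPM 1597 of all tested genes rose and 4362 fell, against 3642 and 2170 as deposited. For complex II SDHAF1 and SDHAF4 rose (2 of 4). For complex III BCS1L, which inserts the Rieske protein, UQCC1 and UQCC2 rose, and LYRM7, which carries the Rieske protein before insertion, fell (log2 fold change -0.42, limma adjusted p = 0.0267). For complex IV 8 of 23 rose and COA5 fell (log2 fold change -0.37, adjusted p = 0.0249). COX10, which makes the haem precursor of cytochrome oxidase, stood at 14.7 and 15.0 FPKM in shFAM49B, against 6.19 and 6.02 FPKM in shCON, and rose 2.43-fold (log2 fold change 1.16, SE 0.0597, adjusted p = 0.0010), more than any subunit gene. OXA1L, the insertase of the inner membrane, rose 1.56-fold, COX15, which acts after COX10 in haem synthesis, rose 1.45-fold, and COX14 rose 1.32-fold. For complex V ATPAF2 alone rose (1 of 5; log2 fold change 0.38, adjusted p = 0.0419).

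The calls of the smaller changes among assembly factors rested on few libraries. COX10, OXA1L, COX15 and COX14 passed with each library left out in turn, but COX14 lost its call as TPM and per recovered read. SDHAF1 did not pass without either shFAM49B library, SDHAF4 without shFAM49B library 1, UQCC1 and BCS1L without shFAM49B library 1 or either shCON library, and UQCC2 without any 1 library. LYRM7, COA5 and ATPAF2 passed in 1 of these 4 fits each, the one without shFAM49B library 1.

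Regulators of mitochondrial biogenesis moved in both directions. Of 14 tested 6 rose (42.9%), 4 fell (28.6%) and 4 did not pass, with a median log2 fold change of -0.0013. Of all tested genes 26.4% rose and 15.8% fell, and 35.8% of those at or above the lowest tested subunit gene rose. As TPM 4 regulators rose and 5 fell (median -0.23), while 1597 of all tested genes rose and 4362 fell. Whether the counts of regulators differ from this background was not tested. TFAM packages mitochondrial DNA and takes part in starting its transcription. It stood at 15.1 and 13.7 FPKM in shFAM49B, against 24.9 and 24.1 FPKM in shCON, and fell by 0.73 on the log2 scale (SE 0.0693, limma adjusted p = 0.0023). YY1, a transcription factor of many housekeeping genes, fell by 0.43 on the log2 scale (adjusted p = 0.0047). POLRMT, the mitochondrial RNA polymerase, stood at 45.5 and 48.9 FPKM in shFAM49B, against 33.6 and 30.6 FPKM in shCON, and rose 1.47-fold (adjusted p = 0.0047), and ESRRA, a nuclear receptor of oxidative metabolism, rose 1.42-fold (adjusted p = 0.0037). Named after their values were seen, 2 factors known to bind promoters of subunit genes went opposite ways: NRF1 rose 1.47-fold (adjusted p = 0.0073) and GABPA, the DNA-binding subunit of GABP, fell by 0.29 on the log2 scale (adjusted p = 0.0422). TFAM, YY1, POLRMT, ESRRA and NRF1 kept their calls with each library left out and under all 6 scalings, whereas GABPA passed in 1 of the 4 fits with a library left out. ESRRA overlaps TRMT112 on the opposite strand, which rose by a log2 fold change of 0.77. PPARGC1A, the coactivator PGC-1 alpha, was not tested at 0.366 and 0.498 FPKM in shFAM49B and 0.420 and 0.438 FPKM in shCON.

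The carriers that bring ADP and phosphate to the ATP synthase mostly rose too. Of 7 tested genes 6 rose and SLC25A4 did not (limma adjusted p = 0.125 at a log2 fold change of 0.17), with a median of 0.50. After quantile normalization 4 rose (median 0.16), and as TPM 5 rose (median 0.26). The ADP/ATP carrier SLC25A6 stood at 459 and 486 FPKM in shFAM49B, against 216 and 213 FPKM in shCON, and rose 2.20-fold (adjusted p = 0.0010). Its paralog SLC25A5 stood at 635 and 636 FPKM in shFAM49B, against 367 and 355 FPKM in shCON, and rose 1.76-fold (adjusted p = 0.0017). The phosphate carrier SLC25A3 rose 1.44-fold and the outer membrane channel VDAC2 1.38-fold. Carrier paralogs have similar sequences, so how reads were shared among them is uncertain. Of 35 tested nuclear subunits of complex I 25 rose (71.4%) and 2 fell (5.71%), against 26.4% and 15.8% of all tested genes. The median over complex I was 0.33. As TPM 9 rose and 3 fell (median 0.12), and after quantile normalization 12 rose and 2 fell (median 0.18). The difference between complex I and complexes II to V was not tested.

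The size of all these changes depends on how libraries are scaled to one another. The deposited values divide the reads of shFAM49B by 0.941 and 0.919 of their totals and those of shCON by 1.08 and 1.10 of theirs. Rescaling to TPM moved the median of all tested genes by -0.22 and division by the recovered reads by -0.18 on the log2 scale. The median of the 41 subunit genes was then 0.25 and 0.26, and 18 and 19 of them rose, against 11.6% and 12.5% of all tested genes. With median ratios over the tested genes 33 rose, against 21.2% of all tested genes. After quantile normalization 20 rose, against 19.2% of all tested genes, with a median of 0.27. Relative to the median of all genes, the subunit genes lay 0.42 higher as deposited, 0.41 higher as TPM, 0.39 higher per recovered read and 0.25 higher after quantile normalization. Under all 6 scalings 14 of the 41 rose: SDHA in complex II, UQCRC1, UQCRC2 and UQCRH in complex III, COX4I1, COX5A, COX6A1, COX7A2, COX7A2L, COX7B and COX8A in complex IV, and ATP5F1A, ATP5MC2 and ATP5MF in complex V. None fell under any of the 6, and 4 had a negative log2 fold change as TPM. The share of all tested genes that rose under all 6 was not counted, so the 14 have no background.

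**Figure D4:**
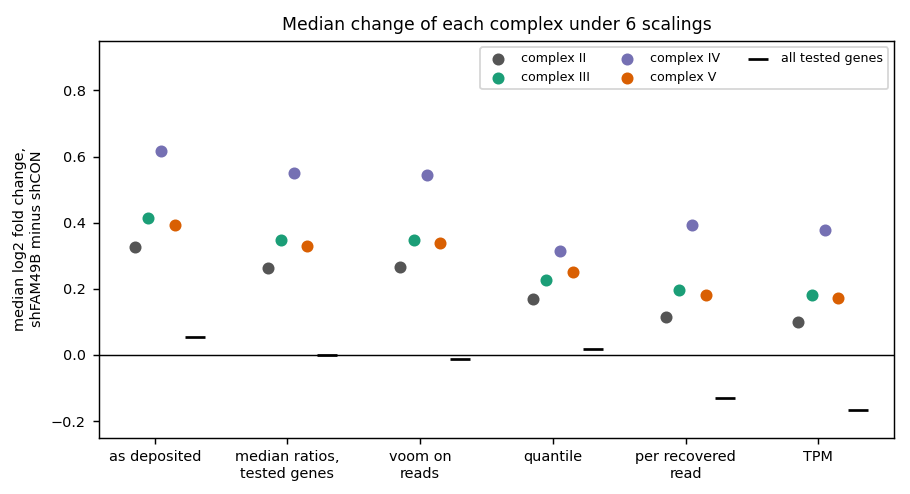
Median log2 fold change (shFAM49B minus shCON) over the tested genes of each complex, as coloured points, and over all tested genes, as black bars, under 6 scalings between libraries. Complex IV is highest under every one of the 6 scalings, from 0.62 as deposited to 0.31 after quantile normalization, and each complex lies above the median of all tested genes.

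With each library left out in turn 20 of the 41 rose in every fit, and 13 of these also rose under all 6 scalings. Left out singly, shFAM49B library 2 left 20 calls, shFAM49B library 1 left 26, shCON library 1 left 27 and shCON library 2 left 32. The share of all tested genes that rose in every such fit was not counted, so these counts have no background. With a library left out the median of the 41 ran from 0.36 to 0.53, against 0.053 to 0.059 over all tested genes. Of the 41 tested subunit genes 12 overlap another tested gene, and strand was not stated for the counting. Of these 12, 9 rose with a median of 0.46, and of the 29 without overlap 26 rose with a median of 0.47. SDHD shares 26 bases with TIMM8B on the opposite strand, and ATP5PF shares 1104 bases with GABPA, which fell. Among the genes that rose, ATP5MF shares 8897 bases with CPSF4 on the opposite strand. CPSF4 also rose (log2 fold change 0.41, limma adjusted p = 0.0058). On the same strand ATP5MF shares 17689 bases with PTCD1, which did not pass (log2 fold change 0.04, limma adjusted p = 0.835). Reads of ATP5MF and these genes may not be separated there. ATP5IF1 is overlapped by AL353622.1, an antisense gene (log2 fold change -0.49, limma adjusted p = 0.054). Annotated pseudogenes were found for 27 members, and those of SDHA and COX6A1 alone held more than 5% of the reads of their parent gene in any library (5.76% and 7.65% for SDHA in shFAM49B, against 10.8% and 11.1% in shCON).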

How the data were processed

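RNA-seq of OVCAR8 cells was analysed for 2 shFAM49B and 2 shCON libraries, grouped and numbered by their titles. The deposited table gives FPKM per gene and library, per the file headers, with coordinates, lengths and biotypes. How reads were aligned and counted, and with which strand setting, is not given in the sources used here. Sequencing libraries were made with a NEBNext Ultra kit from total RNA, per the labels' protocols. Per the submitters' processing notes the builds were the mouse GRCm38 and mm10, but all 58735 identifiers, starts, ends and lengths equal those of human GENCODE release 29, so coordinates are on GRCh38.

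FPKM times gene length gave whole reads for 100% of values above 0 (tolerance 0.001 of a read). The denominators of the deposited FPKM are those of a median-ratio scaling (20791 genes read in every library), which the values thus already carry. In a gene of 1 kb, 1 read equals 0.0541 to 0.0668 FPKM.

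Genes averaging 1 FPKM or more (13775, 11400 of them protein coding) were tested on log2(FPKM + 1) by limma (3.58.1, R 4.3.3) with a mean-variance trend, 2-sided, and Benjamini-Hochberg adjustment over all tested genes at 0.05. There were 2 residual degrees of freedom, and 3.32 came from the prior. Every adjusted p is from this fit unless another setting is named beside it. Fold changes on the log2(FPKM + 1) scale understate the change of low genes, and folds written as "1.86-fold" are ratios of mean FPKM. A run of the procedure on simulated data had few changed genes and scaled libraries by read totals. It cannot speak to how these results depend on scaling. Replicates differed by more than counting noise (chi-square per gene 3.48 in shFAM49B and 3.90 in shCON, against 50.6 to 54.5 between groups) and were kept as separate samples.

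The members and gene lists were chosen with earlier results of these data known, so lists are described by counts and medians without a test. Values per library are given for complex II, for the 3 smallest and 3 largest p in the other complexes and for members that did not pass. They are also given for the highest and lowest levels, tissue isoforms, MT-CYB, MT-CO3 and MT-ATP8, and up to 4 genes of other lists. CYC1, UQCRFS1, COA5, NRF1, GABPA and the read ratios were added after values were seen. Alternatives were another pseudocount or filter, 5 other scalings (among them limma voom on the recovered reads), a replicate block and each library left out. The ETS motif was searched in RefSeq promoter windows.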

Additional observations from a re-analysis of the deposited data

How the results depend on the processing

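Of 238 complex-level and all-gene values recomputed under alternatives, 177 stayed within 1 SD between replicates or 1.5 times the count, 61 moved and none reversed. The 177 include the counts of members that fell, which were 0 in every run. They also include the medians with a replicate block, which cannot move in this balanced design. The number 177 is therefore not a measure of stability. No tested subunit gene was called lower under any alternative run. A pseudocount of 5 gave medians of 0.27 (II), 0.37 (III) and 0.40 (all members). Without the filter 2185 genes rose and 1378 fell, with 5 rising in complex III, and at 5 FPKM 1322 genes fell. As TPM 1597 genes rose and 4362 fell, members rose as 1 (II), 4 (III), 4 (V) and 18 (all), and medians were 0.10, 0.18, 0.38, 0.17 and 0.25 (II, III, IV, V, all). Per recovered read 1722 rose and 4173 fell, members rose as 1 (II), 5 (III), 4 (V) and 19 (all), and medians were 0.11, 0.20, 0.39, 0.18 and 0.26. After quantile normalization 4 (III), 7 (IV), 7 (V) and 20 (all) rose, with medians of 0.17, 0.23, 0.31, 0.25 and 0.27. Median ratios over the tested genes gave medians of 0.26 (II), 0.35 (III), 0.33 (V) and 0.41 (all), and voom gave 0.27 (II), 0.35 (III) and 0.41 (all) with 3514 genes lower. The cause of these shifts was not tested.

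With 1 library left out, 1897 to 2495 genes rose and 1027 to 1529 fell, members rose as 1 to 2 (II), 5 to 7 (III), 5 to 12 (V) and 20 to 32 (all), and medians ran from 0.36 to 0.47 (III) and from 0.36 to 0.53 (all). A lone library of a group is then assumed to vary like the other group.

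Signs turned for the following values, of which ATP5F1B alone was called as deposited (0.66). SDHD was -0.19 as TPM, -0.16 per read, -0.093 after quantile normalization, -0.015 with median ratios, -0.028 with voom and -0.014 without shCON library 1. ATP5PF was -0.14, -0.12 and -0.047 under the first 3 of these and -0.044 without shCON library 1, ATP5IF1 -0.039 as TPM and -0.020 per read, ATP5MG -0.0013 as TPM, and ATP5F1B -0.0085 after quantile normalization. The median of the regulators was 0.00035 with a pseudocount of 0.1, 0.0016 without the filter, 0.013 after quantile normalization and -0.029 to 0.11 with a library left out. The median of the subunits outside the name rule was -0.072 as TPM, -0.052 per read and -0.10 after quantile normalization.

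With the replicate number as a block 35 members, 3429 of all genes rose and 2036 fell. The numbers do not pair the libraries: the deviations of same-numbered libraries had a correlation of -0.0132 over 13775 genes, with 2 pairs only.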
